A study of Mus musculus with 14 samples.

Results

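Cholesterol synthesis and its control by SREBP2 were followed through 27 genes, chosen by name from the 17890 genes of the expression table. The set holds 7 enzymes that build the isoprenoid farnesyl diphosphate from acetyl-CoA, 12 enzymes of the squalene and sterol steps, 4 genes of SREBP2 and its control, and 4 genes at branch points or of the fate of cholesterol. All 27 were present in the table and all passed the filter on low counts, the lowest count of a member in any library being 154. Messenger RNA had been sequenced from bone marrow cells of mice in 2 groups of 4 libraries, named D and M in the table.

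The D libraries were read as the diabetic group. Its donors were male C57BL/6J mice aged 8 weeks at the start, injected with streptozotocin, which kills the beta cells of the pancreas, after a 12 h fast. The daily dose was 42 to 45 mg/kg for 5 days. A glucose reading over 16.9 mmol/L without fasting defined diabetes, and hyperglycaemia then lasted 6 weeks. No label explains the letter M. It was matched by elimination to the healthy group, male mice of the same strain and age without diabetes, so every direction below is D relative to M and would turn round if the letters meant the opposite. Marrow progenitors of both groups were grown for 7 days in DMEM with 5 mmol/L glucose and recombinant mouse M-CSF, the growth factor of macrophages. The labels do not say whether each library is its own mouse, so p-values measure the spread between these libraries, which may be technical.

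Library totals were close, at 19784071 to 20027967 counts in D and 19048195 to 19926267 in M libraries. The labelled cell type is the bone marrow-derived macrophage. The summed level of 8 macrophage markers (among them Itgam, Cd68, Csf1r and Adgre1) was 1258 to 1453 TPM (the deposited abundance scaled for transcript length) in D and 1120 to 1285 TPM in M libraries, with 5 of the 8 called higher in D (edgeR, adjusted p under 0.05). That of 11 neutrophil markers (led by S100a9, S100a8, Ngp and Retnlg) was far higher, at 132200 to 190600 TPM in D and 128400 to 129300 TPM in M libraries, with 8 of the 11 called higher in D. Summed B lineage markers were lower in D, at 69.4 to 249.7 TPM against 1215 to 1590 TPM in M, with 8 of 10 called lower. Mast cell and basophil markers summed to 1087 to 1720 TPM in D and 530.6 to 710.2 TPM in M, with 6 of 7 called higher. T and NK markers summed to 84.9 to 101.6 TPM in D and 62.8 to 69.6 TPM in M, with 3 of 6 tested called higher. Cell division genes summed to 1462 to 1747 TPM in D and 1477 to 1523 TPM in M. These sums overlapped, and 7 of the 15 genes were called higher in D and none lower. Erythroid markers summed to 988.5 to 5692 TPM in D and 4224 to 9489 TPM in M, with none of 7 called in edgeR, 1 at an unadjusted p under 0.05, 1 called lower in DESeq2's test and none in limma's test on TPM. No marker was at 0 in all libraries. The part of this mixture of cells in the results below was not tested, and in bulk RNA fewer cells of a type and less RNA per cell cannot be told apart.

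Cholesterol is built in the endoplasmic reticulum from acetyl-CoA, by way of mevalonate, the isoprenoid diphosphates, squalene and lanosterol. The transcription factor SREBP2, encoded by Srebf2, switches on most genes of the pathway. When membranes hold little cholesterol, the escort protein SCAP carries SREBP2 to the Golgi, where proteases release its active part, and when sterols are plentiful the INSIG proteins hold SCAP back. Macrophages also take up cholesterol with lipoproteins, store it as esters and export it.

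SREBP2 binds sterol regulatory elements, often near a CCAAT box bound by NF-Y. Therefore 2 motifs were searched on both strands of the 250 bases before each annotated start of a gene. The windows come from RefSeq (GRCm38.p6) and were available for 23 of the 27 members. A gene with several starts had a window for each, and a match in any of them counted. For Pmvk, Dhcr7 and Insig2, CCAAT lay in some of the windows but not all. The sterol regulatory element core, searched as TCACNCCA, lay in 3 of the 23 (13.0%). It lay in 4.2% of 27025 genes with a window, 4.01% of the 10328 tested genes among them and 3.67% of 32851 windows. CCAAT lay in 21 of the 23 members (91.3%), including 15 of the 16 enzymes with a window. The share was 37.5% of all genes, 41.02% of the tested genes and 33.85% of windows. The members without a CCAAT were Acat2 and Scap, and no match to the core overlapped a CCAAT. The matches to the core began at -137 from the start of Hmgcs1 (window chr13:119690101-119690350, plus strand), at -162 of Srebf2 (chr15:82147019-82147268, plus strand) and at -177 of Msmo1 (chr8:64733579-64733828, minus strand). These 3 windows are shown because they hold the core, and that of Lbr (chr1:181842402-181842651, minus strand) because this gene differed most between the groups. Each is written 5′ to 3′ on the gene's strand, and capitals mark the matches, a CCAAT on the other strand reading ATTGG.
Hmgcs1: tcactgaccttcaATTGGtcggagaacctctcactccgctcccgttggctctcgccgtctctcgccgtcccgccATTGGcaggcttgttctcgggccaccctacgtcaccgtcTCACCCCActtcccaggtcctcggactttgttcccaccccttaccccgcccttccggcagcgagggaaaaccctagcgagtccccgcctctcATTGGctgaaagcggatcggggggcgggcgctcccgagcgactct
Srebf2: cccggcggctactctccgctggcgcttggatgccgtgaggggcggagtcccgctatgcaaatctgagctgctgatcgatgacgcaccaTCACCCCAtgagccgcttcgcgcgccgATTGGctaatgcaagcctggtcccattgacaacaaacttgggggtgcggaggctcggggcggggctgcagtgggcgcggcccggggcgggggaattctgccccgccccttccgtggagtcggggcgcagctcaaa
Msmo1: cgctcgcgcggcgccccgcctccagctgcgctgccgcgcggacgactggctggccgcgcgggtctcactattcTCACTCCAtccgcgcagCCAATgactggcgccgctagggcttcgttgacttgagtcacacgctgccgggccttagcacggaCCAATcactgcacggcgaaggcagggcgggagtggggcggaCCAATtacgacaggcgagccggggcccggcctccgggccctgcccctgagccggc
Lbr: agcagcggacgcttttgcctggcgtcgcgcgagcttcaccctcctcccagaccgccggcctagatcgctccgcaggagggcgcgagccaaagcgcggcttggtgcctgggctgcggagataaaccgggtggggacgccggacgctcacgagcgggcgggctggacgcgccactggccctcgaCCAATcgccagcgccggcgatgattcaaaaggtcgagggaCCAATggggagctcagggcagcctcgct
The window of Lbr held CCAAT at 2 places and no match to the core. A match is a description of the letters, and its absence from these windows says nothing about binding elsewhere.

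Between D and M libraries 22 of the 27 genes were not called, 2 were called higher in D and 3 were called lower. The 2 higher genes were Lbr, a sterol reductase that is also a protein of the nuclear envelope, and Soat1, which esterifies cholesterol for storage. The 3 lower genes were Fdft1, the squalene synthase, Srebf2 itself and Scap, its escort. Differences were tested in edgeR (quasi-likelihood test, p-values adjusted by Benjamini-Hochberg over 12839 genes, threshold 0.05) and are given as log2 fold changes (D over M) ± SE. The 5 called members are 18.5% of the 27. Of all tested genes 34.7% were called (17.4% higher and 17.3% lower in D), so the share of called members was below that of all tested genes. The libraries of the groups did not overlap for 4 members (every D above every M for Lbr and Ggps1, every D below every M for Srebf2 and Scap), against 34.7% of all tested genes. The median log2 fold change was -0.059 over the members and -0.033 over all tested genes, and 10 members had a positive and 17 a negative value. With library totals in place of TMM scaling, which moved the median of all tested genes by -0.104, 1 member was called higher and 5 lower, and 31.3% of all called genes were higher in place of 50.1%. With the replicate number as a block, 2 members were called higher and 5 lower.

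**Figure D1:**
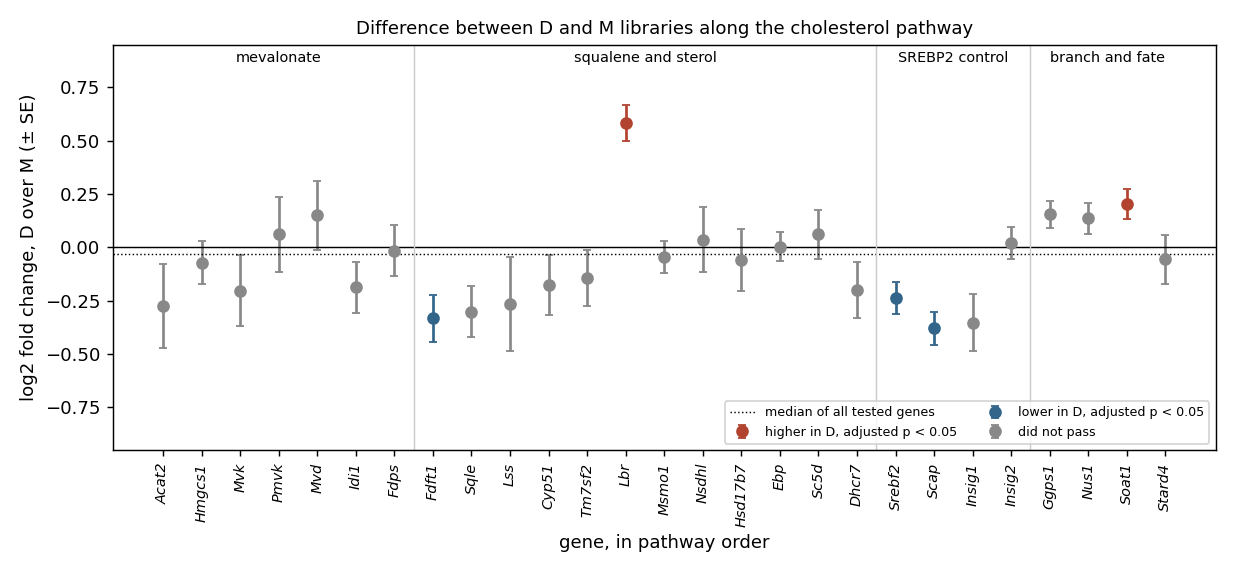
Log2 fold change of each of the 27 genes, D over M, with its standard error (vertical axis), in pathway order (horizontal axis); red points were called higher, blue points lower and grey points did not pass at an adjusted p of 0.05. Lbr at 0.58 stands above all other members, while Fdft1, Srebf2 and Scap are the called genes below 0, and the dotted line marks the median of all tested genes at -0.033.

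None of the 7 enzymes from acetyl-CoA to farnesyl diphosphate was called in either direction in edgeR, in DESeq2's test or in limma's test on TPM, and none had an unadjusted p under 0.05 in edgeR. Their median log2 fold change was -0.073. Acat2, which joins acetyl-CoA units, had 48.4, 51.6, 58.5 and 28.5 CPM (counts scaled to a common library size with TMM factors) across the D libraries in the order of their replicate numbers, against 65.5, 58.6, 55.0 and 46.9 CPM across the M libraries in the same order. All later values by library keep that order. Its groups overlapped, with D replicate 4 lowest of all, and its log2 fold change was -0.27 ± 0.197 (edgeR, adjusted p = 0.308). A close copy of Acat2 lies in the mouse genome, and how the counting divided reads between them is not known. Hmgcs1, the HMG-CoA synthase whose window is printed above, had 376.8, 376.3, 405 and 301.1 CPM in D and 432.2, 378.6, 376 and 348.4 CPM in M libraries. These also overlapped, with D replicate 4 lowest and M replicate 1 highest, and the log2 fold change was -0.07 ± 0.10 (edgeR, adjusted p = 0.597).

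Mevalonate is then phosphorylated by Mvk and Pmvk and decarboxylated by Mvd. Mvk averaged 23.2 ± 2.93 CPM in D and 26.7 ± 6.85 CPM in M libraries (SD, n = 4 each), Pmvk 51.7 ± 14.9 CPM in D and 49.5 ± 5.09 CPM in M, and Mvd 94.6 ± 23.0 CPM in D and 85.2 ± 12.2 CPM in M. Their log2 fold changes were -0.20, 0.06 and 0.15, and those of Pmvk and Mvd changed sign without D replicate 3, to -0.12 and -0.005. Idi1, the isopentenyl diphosphate isomerase, averaged 71.2 ± 10.6 CPM in D and 81.0 ± 10.8 CPM in M libraries, a log2 fold change of -0.19 ± 0.121 (edgeR, adjusted p = 0.248). Fdps, which makes farnesyl diphosphate, averaged 303.4 ± 57.2 CPM in D and 306.5 ± 19.6 CPM in M libraries. The D libraries of Fdps reached from 256.8 CPM in replicate 4 to 381.1 CPM in replicate 3, on both sides of the M range of 277.8 to 322.2 CPM.

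Of the 12 enzymes from squalene to cholesterol, Lbr was called higher and Fdft1 lower, and 10 were not called; the median log2 fold change was -0.10. Fdft1 joins farnesyl units into squalene and so commits them to sterols. It had 133.7, 119.7, 140.1 and 102.4 CPM in D libraries and 179.6, 158.2, 151.7 and 134.9 CPM in M libraries. M replicate 4 lay below D replicate 3, so the groups overlapped, and the other M libraries were above all D libraries. Fdft1 had a log2 fold change of -0.33 ± 0.111 (edgeR, adjusted p = 0.0396). The adjusted p of Fdft1 passed the threshold no longer with DESeq2 size factors (0.0539), with only its most abundant transcript (0.107), or without D replicate 2 (0.0947), D replicate 4 (0.136), M replicate 1 (0.112), M replicate 2 (0.0854) or M replicate 3 (0.0652). Fdft1 shares 774 bases with Ctsb, a cathepsin gene of 1001 TPM in D and 1134 TPM in M libraries, and whether counting used strand is not given in the sources used here.

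Sqle, the squalene epoxidase and a slow step of the pathway, had 131.7, 137.8, 143.2 and 102.9 CPM in D and 183.5, 170, 145.8 and 135.9 CPM in M libraries. M replicates 1, 2 and 3 were above every D library, and M replicate 4 fell inside the D range. The log2 fold change of -0.30 ± 0.121 did not pass (edgeR, adjusted p = 0.0751), and it passed with the replicate number as a block (adjusted p = 0.0208), with library totals (0.0200) and in limma's test on TPM (0.0276). Lss, which closes squalene epoxide into lanosterol, had 63.9, 83.8, 102.5 and 49.1 CPM in D and 107.6, 92.7, 88.9 and 70.6 CPM in M libraries, and Cyp51, the lanosterol demethylase, 218.6, 227.3, 264.2 and 156.5 CPM in D and 276, 253, 237 and 214.8 CPM in M libraries. Both overlapped between groups, with D replicate 4 lowest and M replicate 1 highest, at log2 fold changes of -0.27 and -0.18 (edgeR, adjusted p = 0.375 and 0.351).

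After Cyp51 the pathway uses a sterol reductase that is encoded by both Tm7sf2 and Lbr. Lbr is also the lamin B receptor, which tethers chromatin to the nuclear lamina, and in humans its defects are known for misshapen granulocyte nuclei. Lbr had 527, 568.5, 648.9 and 568.4 CPM in D libraries and 352.5, 377, 417.1 and 396.5 CPM in M libraries. Every D library was above every M library, the nearest being D replicate 1 and M replicate 3. The log2 fold change was 0.58 ± 0.085, or 1.50-fold (edgeR, adjusted p = 0.000705), and it stayed between 0.47 and 0.65 with an adjusted p of at most 0.00499 under all alternatives tried. Its main transcript took 95.5% of the gene's counts in D and 94.7% in M libraries. Tm7sf2 averaged 10.2 ± 1.73 CPM in D and 11.3 ± 0.944 CPM in M libraries and was not called (log2 fold change -0.15 ± 0.132, edgeR, adjusted p = 0.413). Per length, the level of Lbr was 294.7 ± 15.5 TPM in D and 210.0 ± 19.2 TPM in M libraries, and that of Tm7sf2 12.8 ± 2.11 TPM in D and 15.1 ± 1.25 TPM in M libraries. Neutrophil markers summed to 132200 TPM in D replicate 1 and 190600 TPM in D replicate 3, the lowest and highest D libraries of Lbr as well. In M replicates 1 and 3, the lowest and highest M libraries of Lbr, they summed to 129100 and 128400 TPM. The part of the neutrophil markers in the difference was not tested.

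The later enzymes gave small differences. Msmo1 and Nsdhl, which with Hsd17b7 strip methyl groups from the sterol ring, had log2 fold changes of -0.05 and 0.04, and Hsd17b7 one of -0.06. Ebp, the sterol isomerase, averaged 51.2 ± 3.43 CPM in D and 51.0 ± 1.55 CPM in M libraries, a log2 fold change of 0.004 ± 0.067 (edgeR, adjusted p = 0.967). Sc5d, which adds a ring double bond, had 0.06, and Dhcr7, which reduces the last precursor to cholesterol, had -0.20 ± 0.131 (edgeR, adjusted p = 0.257). Dhcr7 had 66.2, 65.0, 66.3 and 43.5 CPM in D and 79.0, 63.9, 68.0 and 65.8 CPM in M libraries. Its D replicate 4 was far below the other D libraries, which lay among those of M. The signs of Nsdhl, Ebp and Sc5d turned with library totals, to -0.08, -0.10 and -0.05.

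Of the 4 control genes, Srebf2 and Scap were called lower in D, Insig1 and Insig2 were not called, and the median log2 fold change was -0.30. Srebf2 had 304.9, 306.3, 331.6 and 291.9 CPM in D libraries and 405.6, 354.5, 351.2 and 344.8 CPM in M libraries. All D libraries were below all M libraries, with M replicate 1 well above the rest of its group. This gave -0.24 ± 0.075 on the log2 scale (edgeR, adjusted p = 0.0319). The adjusted p of Srebf2 was 0.0523 with DESeq2 size factors, 0.0651, 0.0786 and 0.140 without D replicate 1, 2 or 4, and 0.0777, 0.0557 and 0.0512 without M replicate 1, 2 or 3, all above the threshold. The window of Srebf2 printed above is 1 of the 3 with the sterol regulatory element core.

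Scap had 48.7, 43.5, 41.4 and 45.4 CPM in D and 63.4, 53.4, 59.7 and 56.3 CPM in M libraries. Here too the groups did not overlap, and D replicate 3 was lowest. The log2 fold change was -0.38 ± 0.077 (edgeR, adjusted p = 0.0042), and it passed whichever library was left out. On its main transcript only, the value was -0.32 and the adjusted p 0.532. The estimates for its 2 main transcripts traded places between libraries, taking 29.9% to 69.8% and 29.9% to 64.2% of the gene's counts.

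Insig1, itself switched on by SREBP2, had 159.4, 170.9, 197.2 and 127 CPM in D and 242.7, 222.7, 190.5 and 180.3 CPM in M libraries. D replicate 3 lay above M replicates 3 and 4, so the groups overlapped on this scale. On the TPM scale they did not, with 87.3 to 128.9 TPM in D and 133.5 to 172.6 TPM in M libraries. Its log2 fold change was -0.35 ± 0.135 (edgeR, adjusted p = 0.0633), the most negative among the genes not called, and it passed with the replicate number as a block (adjusted p = 0.0302), with library totals (0.0158), in limma's test on TPM (0.0213) and without D replicate 3 (0.0285). Insig2, the other anchor of SCAP, had 20.9 ± 0.989 CPM in D and 20.6 ± 0.853 CPM in M libraries (SD, n = 4 each) and a log2 fold change of 0.02 ± 0.075.

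**Figure D2:**
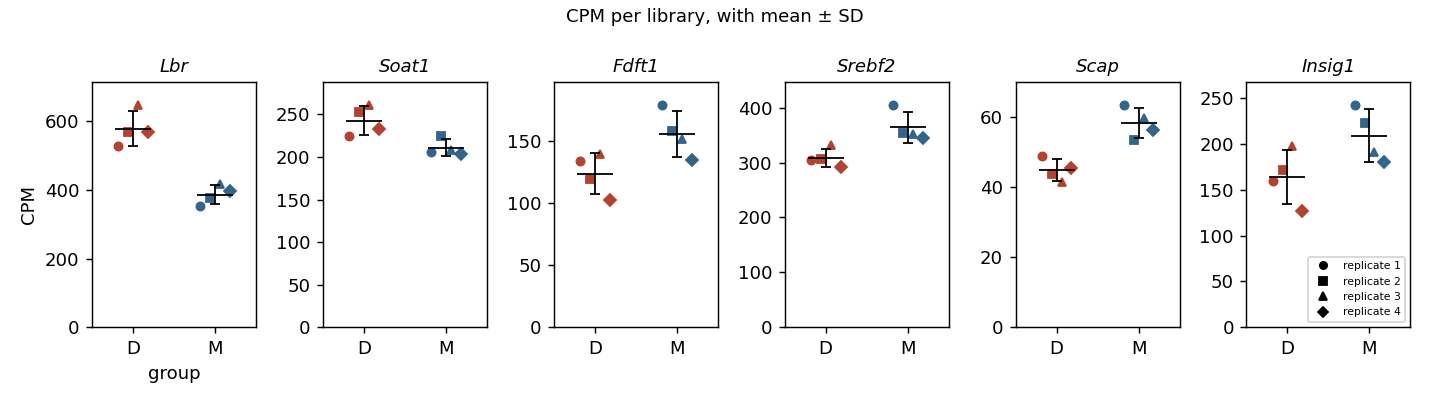
CPM (vertical axes, from 0) of the 5 called genes and Insig1 in each D and M library, with bars for the mean and SD of 4 libraries and a marker shape for each replicate number. Lbr, Srebf2 and Scap do not overlap between groups, while Soat1, Fdft1 and Insig1 do.

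Of the 4 branch and fate genes, Soat1 was called higher and 3 were not called. Soat1 had 224.4, 252.3, 261.5 and 232.8 CPM in D and 206, 225.1, 208.6 and 203.2 CPM in M libraries. Only M replicate 2 reached into the D range, just above D replicate 1. Soat1 had a log2 fold change of 0.20 ± 0.071 (edgeR, adjusted p = 0.0468). It passed no longer with library totals (0.10, adjusted p = 0.239), without a filter (adjusted p = 0.0632), with limma's test on TPM (0.12, adjusted p = 0.185) or with only the main transcript (0.03, adjusted p = 0.872), which held 70.6% of the gene's counts in D and 79.1% in M. Without D replicate 2, 3 or 4 the adjusted p of Soat1 was 0.119, 0.0699 and 0.0613, and without M replicate 1, 3 or 4 it was 0.0964, 0.102 and 0.124.

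Ggps1, which lengthens farnesyl diphosphate to the geranylgeranyl form used on proteins, had 37.3, 39.2, 37.9 and 40.2 CPM in D and 32.6, 36.5, 35.2 and 34.6 CPM in M libraries. Every D library was above every M library by CPM, and by TPM the groups overlapped. The log2 fold change of 0.15 ± 0.065 did not pass (edgeR, adjusted p = 0.0896), and it passed without D replicate 1 (0.20, adjusted p = 0.0447). Nus1, a subunit of the enzyme that makes dolichol chains, averaged 85.0 ± 7.13 CPM in D and 77.4 ± 3.05 CPM in M libraries. Its log2 fold change was 0.14 ± 0.073 (edgeR, adjusted p = 0.170), and 0.21 without D replicate 3 (adjusted p = 0.0223), whose 74.5 CPM was below the 87.7 to 90.2 CPM of the other D libraries. Stard4, a carrier of cholesterol between membranes, averaged 110.9 ± 20.1 CPM in D and 115.2 ± 8.51 CPM in M libraries (log2 fold change -0.06, edgeR, adjusted p = 0.734).

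By level per length, the set reached from Fdps down to Tm7sf2. Fdps had 447.5 ± 69.7 TPM in D and 483.8 ± 27.8 TPM in M libraries (SD, n = 4 each). Lbr came next, then Msmo1, at 210.9 ± 13.1 TPM in D and 231.5 ± 12.7 TPM in M, and Hmgcs1, at 189.9 ± 22.3 TPM in D and 212.4 ± 15.1 TPM in M. The ranges of mean ± SD of Msmo1 and Hmgcs1 overlapped in both groups, though Msmo1 was the higher in all 8 libraries. In M libraries the range of Lbr overlapped both, while in D libraries Lbr was above both beyond their spread. Srebf2 stood at 118.4 ± 4.43 TPM in D and 149.1 ± 7.94 TPM in M, beside Insig1 at 112.5 ± 17.99 TPM in D and 153.1 ± 18.2 TPM in M. Scap was lower, at 19.4 ± 1.98 TPM in D and 26.8 ± 1.73 TPM in M, and Insig2 was at 14.9 ± 0.714 TPM in D and 15.4 ± 0.515 TPM in M. Of the kinases and the decarboxylase of the mevalonate steps, Mvk was the lowest, at 24.8 ± 3.09 TPM in D and 30.4 ± 7.10 TPM in M, below Pmvk at 82.2 ± 21.1 TPM in D and 83.8 ± 7.56 TPM in M.

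**Figure D3:**
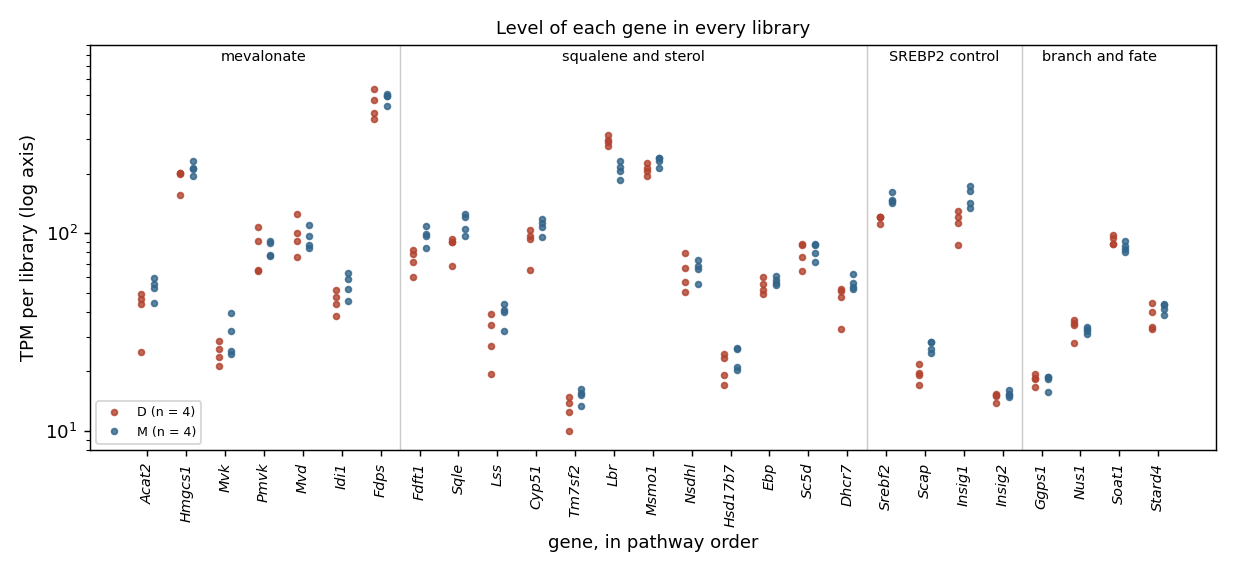
Level of each gene in every library, in TPM on a log axis, in pathway order, with the D libraries in red to the left of the M libraries in blue. Fdps is highest and Tm7sf2 lowest, and the D points of many enzymes spread more widely than the M points.

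Within each group the enzymes moved together from library to library. For each gene the deviation of log2 CPM from the mean of its own group was taken. All 19 enzymes were above their D mean in D replicate 3, with a median deviation of 0.26, and all 19 were below it in D replicate 4, with a median of -0.28. In D replicates 1 and 2 the medians were 0.04 and 0.06, and over all tested genes they lay between -0.001 and 0.012 in the D libraries. D replicate 3 was the highest D library for 17 of the 19 enzymes (89.5%, against 35.3% of all tested genes) and D replicate 4 the lowest for 17 (89.5%, against 16.4%). Among the marker lists, D replicate 3 was also highest for 9 of 11 neutrophil markers and for 0 of 10 B lineage markers. D replicate 4 was lowest for 0 in both lists, but for 7 of 15 cell division genes and 4 of 7 mast cell and basophil markers. It was lowest for 1 of 8 macrophage markers, 0 of 6 T and NK markers and 0 of 7 erythroid markers. In the M group, replicate 1 was highest for 16 enzymes (84.2%, against 30.6%) and replicate 4 lowest for 14 (73.7%, against 21.9%), with medians of 0.18 and -0.18. Counted with library totals or on the deposited TPM, D replicate 3 was highest for 11 enzymes (57.9%, against 22.6% and 22.0% of all tested genes), while D replicate 4 was lowest for 18 (94.7%) on both scales. M replicate 1 was highest for 15 with library totals (78.9%, against 27.4%) and for 12 on the deposited TPM (63.2%, against 21.3%). M replicate 4 stayed lowest for 14 on both scales.

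**Figure D4:**
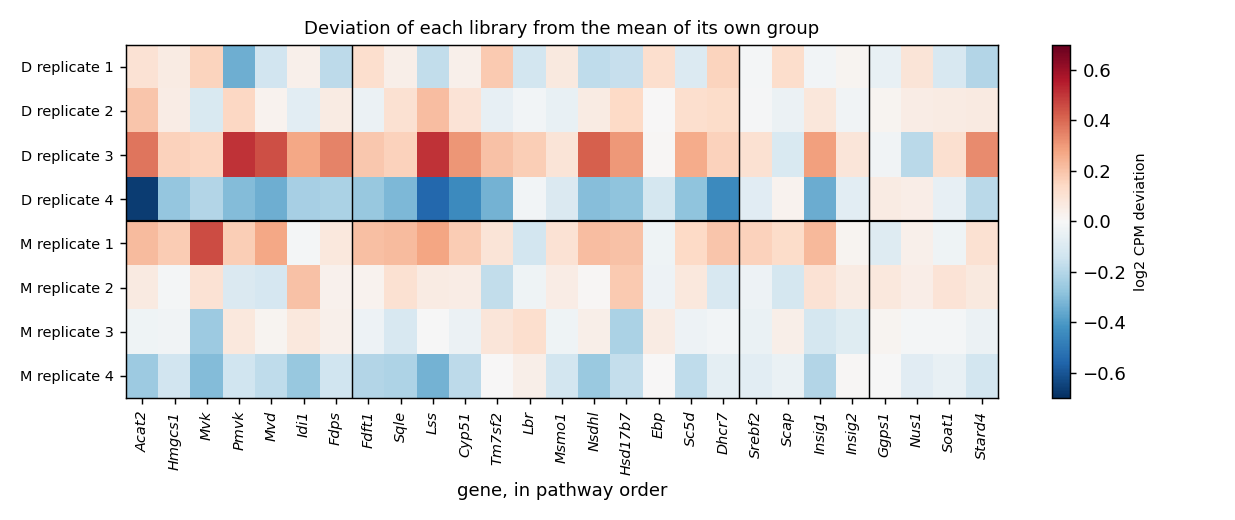
Deviation of log2 CPM from the mean of the library's own group, for each of the 27 genes (columns, in pathway order) in each library (rows, D above M), red above and blue below the mean. D replicate 3 is red and D replicate 4 blue across nearly all enzymes, with Ebp close to its mean in D replicate 3 (0.006). M replicate 1 and M replicate 4 show the same to a lesser degree for most enzymes, with Lbr going the other way in those M libraries. Scap, Ggps1 and Nus1 go the other way in D replicates 3 and 4.

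The size of this swing differed along the pathway. The ratio of D replicate 3 to D replicate 4 in CPM had a median of 1.46 over the 19 enzymes and ran from 1.09 to 2.09. It was above 1.2 for 16 of them (84.2%), against 16% of all tested genes, whose median ratio was 1.00. These library pairs and the limit of 1.2 were chosen after the values were seen. Lss at 2.09, Acat2 at 2.05, Pmvk at 1.76, Mvd at 1.73 and Cyp51 at 1.69 swung most, and Ebp at 1.09, Lbr at 1.14 and Msmo1 at 1.14 least. Insig1, at 1.55, and Stard4, at 1.43, swung as the enzymes did. Srebf2 was at 1.14 and Insig2 at 1.12, and Scap at 0.912, Ggps1 at 0.942 and Nus1 at 0.849 were lower in D replicate 3 than in D replicate 4. In the M group the ratio of replicate 1 to replicate 4 had a median of 1.25 over the enzymes, from 0.889 for Lbr to 1.70 for Mvk. Over all tested genes its median was 1.00. It was above 1.2 for 13 of the 19 (68.4%, against 13.6% of all tested genes) and above 1 for 17 (89.5%, against 50.2%).

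Summed over the 7 mevalonate steps, the level was 883, 979, 1094 and 761 TPM in D replicates 1 to 4 and 1077, 1021, 1040 and 913.2 TPM in M replicates 1 to 4. The D libraries thus reached both above and below all M libraries. Fdps was the largest part of this sum, with 404.4, 472.3, 533.9 and 379.3 TPM in D and 492.4, 495.6, 504.6 and 442.8 TPM in M libraries. By itself it also reached above and below all M libraries. Summed over the 12 squalene and sterol steps it was 1077, 1097, 1144 and 921.3 TPM in D and 1144, 1121, 1112 and 1015 TPM in M libraries, with D replicate 4 again lowest. This sum holds Lbr, the only 1 of the 12 called higher in D. Lbr alone gave 277.6, 297.4, 314.4 and 289.4 TPM in D and 185.8, 205.6, 231.1 and 217.5 TPM in M libraries. Of the 12, 8 had a negative and 4 a positive log2 fold change, so the sum does not stand for the other enzymes. The libraries at the ends also differed in other genes. D replicate 3 had 190600 TPM of neutrophil, 69.4 TPM of B lineage and 988.5 TPM of erythroid markers, and D replicate 4 had 162500, 249.7 and 4703 TPM of the same lists. M replicate 1 had 129100 TPM of neutrophil, 1548 TPM of B lineage and 4224 TPM of erythroid markers, and M replicate 4 had 129300, 1277 and 9489 TPM. The part of these in the swing was not tested.

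**Figure D5:**
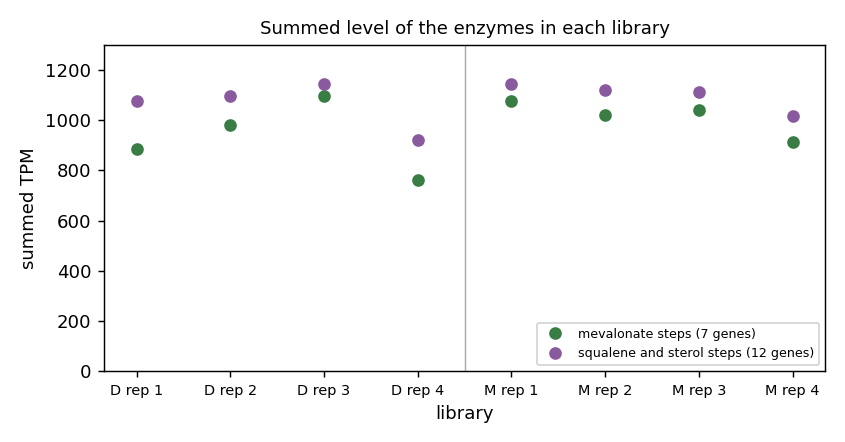
Summed level in TPM of the 7 mevalonate enzymes (green) and the 12 squalene and sterol enzymes (purple) in each library, D libraries to the left. D replicate 4 has the lowest sums, 761 and 921.3 TPM, and D replicate 3 the highest of the D group, 1094 and 1144 TPM. The purple sums include Lbr, which was called higher in D, and the green sums include Fdps, the most abundant member.

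Beyond the members, 57 listed genes of cholesterol handling gave 55 that could be tested, of which 7 were called higher and 5 lower in D. That is 12.7% higher and 9.09% lower, against 17.4% and 17.3% of all tested genes. With the replicate number as a block, 9 were called higher and 7 lower, with no call lost. Among 7 other synthesis genes none was called in edgeR, and 2 had an unadjusted p under 0.05; DESeq2's test called 1 higher and limma's test on TPM 3 lower. Among 10 uptake genes none was called in edgeR, and 4 had an unadjusted p under 0.05. The block called 1 of them higher and 2 lower, DESeq2's test 1 higher and 1 lower, and limma's test on TPM 2 lower. D replicate 4 was the lowest D library for 8 of the 10. Of 12 genes of SREBP processing and sterol-regulated degradation, Syvn1, a ubiquitin ligase of the endoplasmic reticulum (-1.09, edgeR, adjusted p = 5.8e-05), and Mbtps1, the first protease to cleave SREBP2 (-0.18, adjusted p = 0.0409), were lower. Of 13 genes of non-sterol isoprenoid use, Zmpste24 was higher (0.34, adjusted p = 0.00509), and Icmt (-0.24, adjusted p = 0.0250) and Rce1 (-0.33, adjusted p = 0.0265) were lower, all 3 of them processing enzymes of prenylated proteins. The call of Syvn1 held in every alternative tried. That of Mbtps1 ended with DESeq2 size factors (adjusted p = 0.0705), without a filter (0.0745) and with the omission of any library but M replicate 2 (0.0774 to 0.114). That of Rce1 ended without D replicates 2, 3 and 4 and M replicate 1, each left out by itself (0.0516 to 0.0789), and that of Icmt likewise without D replicates 2 and 4 and M replicates 1, 3 and 4 (0.0529 to 0.105). With only the most abundant transcript Zmpste24 (0.0532), Mbtps1 (0.416), Rce1 (0.404) and Icmt (0.0534) no longer passed.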

How the data were processed

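Polyadenylated RNA of 8 libraries (4 D, 4 M) was analysed; 3 diabetic-trained and 3 untrained samples of a second phase were not analysed here. Per the labels, SOAPnuke 1.5.6 removed poor reads and a program written HISTA2 2.1.0 aligned the rest; the submitters' processing notes name mm10 and GRCm38. How transcripts were quantified, with which annotation and strand setting, is not given in the sources used here. Per the file headers, the authors' values include unnormalized estimated counts for 60072 RefSeq transcripts of 17890 genes. The authors' deposited TPM is scaled for length to a fixed library sum. The authors' FPKM and normalized-count signal columns were deposited too and not used.

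The estimated counts were added up by gene, then rounded. Genes were filtered with filterByExpr (minimum count 10, minimum total 15), which left 12839, and tested with edgeR 4.0.16 in R 4.3.3 (TMM, robust quasi-likelihood fit, group only), with Benjamini-Hochberg adjustment at 0.05. CPM uses TMM-scaled library sizes, and deviations use log2 CPM with a prior count of 2. TMM factors were 0.913 to 1.01 in D and 1.03 to 1.05 in M libraries, totals were 19048195 to 20027967 counts, and the biological coefficient of variation was 12.4%. Every replicate pair differed beyond counting noise (chi-square over genes, 6.19 to 63.2 per gene), and each library was kept as 1 sample. Only the edgeR steps were run on simulated counts, in which far fewer genes changed than were called here. The recovery required there covered only changes larger than those of the called members, so it does not vouch for these calls.

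All 27 members are named. Of each list of other pathway genes, up to 4 called genes with the lowest p are named, apart from what is not reported here, and of each marker list up to 4 genes with the highest TPM. The members and lists were chosen with earlier results of these data known. Replicate numbers 1 to 4 occur in both groups, and the labels do not say what they stand for. Deviations of same-numbered libraries correlated at 0.115, 0.131, 0.118 and 0.182, all above 0.1, and those of other pairs at -0.178 to 0.0735. The numbers may therefore pair the libraries, which these data alone cannot settle. The main fit leaves the number out. The fit with that block is given where it changed a call of a member, and as counts for the other pathway genes. Alternatives were DESeq2 1.42.0 size factors and test, library totals, no filter, at least 50 counts in 4 libraries, the replicate block, the most abundant transcript, limma 3.58.1 on log2(TPM + 1) with a mean of at least 1, and each library left out. Leaving out D replicates 1 and 3, and counting the covariation on other scales, were chosen after seeing the data.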

Additional observations from a re-analysis of the deposited data

Results flagged for a closer look

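In 6 of 78 groups of 4 libraries, 1 library stood apart from the other 3, its gap to the nearest divided by the range of the group being above Dixon's critical value. Chance gives about 1 in 20 groups. Among the members, Dhcr7 in D replicate 4 was low, at 43.45 CPM against 64.95 to 66.31 CPM in the other D libraries. Nus1 in D replicate 3 was low, at 74.47 CPM against 87.69 to 90.15 CPM, and Srebf2 in M replicate 1 was high, at 405.6 CPM against 344.8 to 354.5 CPM. Among the other pathway genes, Mbtps1 was at 82.38 CPM in D replicate 4 against 77.17 to 77.62 CPM in the other D libraries. Rce1 was at 17.83 CPM in M replicate 1 against 15.31 to 15.58 CPM, and Icmt at 49.62 CPM in M replicate 2 against 57.35 to 58.39 CPM in the other M libraries.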

How the results depend on the processing

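The call of Lbr held in every alternative tried, and that of Scap in all but the most abundant transcript. The other 3 calls lie near the threshold and ended under some alternatives, as given with each gene. The number of members called higher, 2, became 1 with library totals, without a filter, with the most abundant transcript and with limma's test on TPM, 4 without D replicates 1 and 3, and 1 to 3 with each library left out in turn. The number called lower, 3, became 1 with DESeq2 size factors or the most abundant transcript, 5 with library totals or limma's test on TPM, and 1 to 4 with a library left out. With the replicate number as a block it was 5, Sqle and Insig1 being added, and the block changed no other call of a member; of the other pathway genes it called 9 higher and 7 lower. Other pathway genes called higher, 7, became 11 in DESeq2's test and 4 with the most abundant transcript (7 to 10 with a library left out). Those called lower, 5, became 12 with library totals or limma's test on TPM and 1 with the most abundant transcript (1 to 6). Over all genes, 2233 were called higher, against 1088 with the most abundant transcript and 1460 with limma's test on TPM (1710 to 2865 with a library left out), and 2223 lower, against 3346 with library totals and 964 with the most abundant transcript (1583 to 2504). The number of enzymes highest in D replicate 3 among D libraries, 17, became 11 with library totals and 11 on deposited TPM. The cause of these moves was not tested.

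Among members not called, log2 fold changes near 0 changed sign. With library totals Pmvk was at -0.053, Nsdhl at -0.076, Ebp at -0.100, Sc5d at -0.048 and Insig2 at -0.086. With limma's test on TPM they were at -0.058, -0.070, -0.087, -0.055 and -0.044, and without D replicates 1 and 3 at -0.022, -0.078, -0.036, 0.000 and -0.010, with Mvd at -0.004. With the most abundant transcript Hmgcs1 was at 0.053, Mvk at 0.202, Hsd17b7 at 0.048 and Ebp at -0.008. Ebp was at -0.001 with at least 50 counts in 4 libraries, and Fdps at 0.011 with DESeq2 size factors and at 0.011 in DESeq2's test. With a library left out, the log2 fold changes ran from -0.118 to 0.029 for Hmgcs1, -0.116 to 0.196 for Pmvk, -0.005 to 0.279 for Mvd, -0.128 to 0.079 for Fdps, -0.087 to 0.009 for Msmo1, -0.107 to 0.152 for Nsdhl, -0.153 to 0.050 for Hsd17b7, -0.011 to 0.063 for Ebp, -0.017 to 0.169 for Sc5d, -0.009 to 0.065 for Insig2 and -0.162 to 0.037 for Stard4. Every member had at least 154 counts in every library, and its spread between libraries was above counting error in 50 of 54 pairs of a gene and a group. In Insig2 in both groups, Ggps1 in D and Ebp in M it was not, so depth limits the precision there.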

Other observations

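Genes that move cholesterol within and out of the cell made up 5 of the 7 listed pathway genes beyond the members that were called higher in D. Of all tested genes 17.4% were called higher, and nothing particular to these genes is read from their counts. Of 8 genes of intracellular sterol transport, 3 (37.5%) were called higher in D and none lower. Gramd1b, which carries cholesterol from the plasma membrane to the endoplasmic reticulum, averaged 107.6 ± 19.3 CPM in D and 66.7 ± 1.27 CPM in M libraries (log2 fold change 0.69 ± 0.113, edgeR, adjusted p = 0.00145), and its relative Gramd1a averaged 163.6 ± 22.9 CPM in D and 125.3 ± 9.57 CPM in M (0.39, adjusted p = 0.0145). Stard5, a sterol carrier of the same family as Stard4, averaged 30.01 ± 3.71 CPM in D and 23.0 ± 0.708 CPM in M libraries (0.38, adjusted p = 0.00940). All D libraries of Gramd1b and Stard5 were above all M libraries, and those of Gramd1a overlapped. With the most abundant transcript only, Gramd1a (adjusted p = 0.121) and Gramd1b (0.471) no longer passed.

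Of 7 genes of oxysterol production and LXR-driven efflux, Ch25h and Cyp7b1 were too low to be tested. The exporters rose in D. Abca1 had 3.97, 13.3, 13.1 and 10.3 CPM in D and 2.30, 2.95, 2.71 and 3.21 CPM in M libraries (log2 fold change 1.86 ± 0.337, edgeR, adjusted p = 0.00301). Abcg1 had 21.4, 41.1, 56.4 and 25.2 CPM in D and 7.87, 12.0, 12.1 and 10.9 CPM in M libraries (1.75 ± 0.314, adjusted p = 0.00404). D replicate 1 was the lowest D library of both exporters, whereas D replicate 4 was the lowest for most synthesis enzymes. The ratio of D replicate 3 to D replicate 4 was nevertheless 2.24 for Abcg1, above that of every enzyme, and 1.27 for Abca1. That of M replicate 1 to M replicate 4 was 0.719 and 0.715. Cyp27a1, which makes an oxysterol from cholesterol, fell in D, with 5.48, 2.76, 2.32 and 3.60 CPM against 8.65, 7.15, 5.91 and 5.47 CPM in M libraries (-0.94 ± 0.254, adjusted p = 0.0167). With only the most abundant transcript Abca1 (adjusted p = 0.309) and Cyp27a1 (0.170) no longer passed, nor did Cyp27a1 without M replicate 1 (0.0536).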
